A study of Mus musculus with 12 samples.

Results

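The 39 genes described here code for proteins that copy DNA or govern the entry into S phase, the part of the cell cycle in which DNA is copied. They were chosen by gene symbol, with no threshold on a measured value but with earlier results of these data known, and were 39 of the 18604 genes measured in any of the deposited tables. They fall into 8 roles: 10 genes of origin licensing, 5 of helicase activation, 4 polymerase and primase genes, 6 of the sliding clamp, its loader and single-strand binding, 2 of Okazaki fragment joining, 5 of nucleotide supply, 4 of chromatin behind the fork and 3 of G1/S control. All 39 passed the filter on low values in every comparison.

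RNA selected for poly(A) was sequenced from hearts of male C57Bl/6J mice aged 12 weeks. The mice ate either a diet free of the branched-chain amino acids (BCAA) or a control diet that held them at the level of standard chow, starting 4 days ahead of surgery and lasting until the heart was taken. Surgery was a sham operation or transverse aortic constriction (TAC), a narrowing of the aorta that makes the left ventricle pump against a higher pressure, and hearts were collected 1 week later. The groups are called control sham and control TAC, or BCAA-free sham and BCAA-free TAC, here, and each of the 4 held 3 libraries. The design asks whether the diet alters how the heart's genes respond to the pressure load.

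DNA replication starts when the origin recognition complex, with Cdc6 and Cdt1, loads the ring-shaped Mcm2 to Mcm7 helicase onto origins in G1. In S phase Mcm10, Cdc45 and the GINS complex switch the helicase on, primase and the polymerases build the new strands, the Pcna clamp holds the polymerases in place, and Fen1 and Lig1 finish the lagging strand. The E2F transcription factors drive many of these genes once cyclin-dependent kinases, among them that of cyclin E, release them from the retinoblastoma protein. In the adult heart most cardiac muscle cells have left the cell cycle, and most cells that divide after pressure overload are not muscle cells.

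Because E2F factors are known to bind the promoters of many replication genes, the promoter sequences are shown first. RefSeq promoter windows of GRCm38.p6, 250 bases before to 50 after the start, were found for 34 of the 39 genes (39 windows, since some genes have more than 1 start), and Pole, Gins1, Gins2, Ccne2 and Mcm4 had no entry. The words TTTCCCGC, TTTCGCGC, TTTGCCGC and TTTGGCGC, searched on both strands, were in 14 of the 39 windows (35.9%), those of 14 genes, and in 744 of all 32851 windows (2.26%). A wider set of 8 core words, added after the values had been seen (TTCCCGCC, TTGGCGCC, TTCGCGCC, TTGCCGCC, TTCCCGCG, TTGGCGCG, TTCGCGCG and TTGCCGCG, some of which overlap the first set), was in 23 of the 39 windows (59.0%) and in 6.21% of all windows. The CCAAT word was in 23 of the 39 windows (59.0%, against 37.4% of all windows), and TTTGAA or TTCGAA, the core of the CHR element of late cell cycle genes, in 7 (17.9%, against 19.2%). A match is a description of the letters and not evidence of binding. Below, 4 stretches of 160 bases hold a word, in capitals, and 2 hold none. They are from Mcm5 (chr8:75109349-75109508, plus strand), Mcm6 (chr1:128359706-128359865, minus strand), Cdc6 (chr11:98907991-98908150, plus strand), Pola1 (chrX:93632156-93632315, minus strand), Mcm2 (chr6:88898781-88898940, minus strand) and Mcm10 (chr2:5012792-5012951, minus strand), each 5′ to 3′ on the strand of its gene.
Mcm5: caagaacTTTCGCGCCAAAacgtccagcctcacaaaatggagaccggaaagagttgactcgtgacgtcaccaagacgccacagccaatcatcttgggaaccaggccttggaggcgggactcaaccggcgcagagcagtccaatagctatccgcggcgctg
Mcm6: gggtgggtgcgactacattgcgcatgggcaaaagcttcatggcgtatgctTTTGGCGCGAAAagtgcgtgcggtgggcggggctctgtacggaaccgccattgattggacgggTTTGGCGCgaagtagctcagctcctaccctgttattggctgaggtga
Cdc6: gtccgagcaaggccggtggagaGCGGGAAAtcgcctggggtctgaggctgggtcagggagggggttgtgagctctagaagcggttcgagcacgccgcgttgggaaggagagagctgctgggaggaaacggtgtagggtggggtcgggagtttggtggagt
Pola1: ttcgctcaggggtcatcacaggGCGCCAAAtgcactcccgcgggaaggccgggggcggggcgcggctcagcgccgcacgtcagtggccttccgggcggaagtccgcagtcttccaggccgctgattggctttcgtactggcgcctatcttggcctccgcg
Mcm2: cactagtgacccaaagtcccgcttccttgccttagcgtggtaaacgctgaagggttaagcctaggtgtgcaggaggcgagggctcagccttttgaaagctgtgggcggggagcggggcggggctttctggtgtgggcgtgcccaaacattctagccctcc
Mcm10: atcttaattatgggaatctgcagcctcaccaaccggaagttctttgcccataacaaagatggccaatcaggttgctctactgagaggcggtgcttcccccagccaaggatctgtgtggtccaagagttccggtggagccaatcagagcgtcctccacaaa
In Mcm5 and in the first match of Mcm6, 12 capital letters stand together because a word on one strand overlaps a word on the other. Pola1 holds a word and is shown because its RNA was not called in any comparison, whereas Mcm10, with no word, was called in both comparisons that involve control TAC. The windows of E2f1 and Rrm2 also held none of the 4 words.

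For 6 further genes the results turn on, 30 bases around a word are shown, again with the word in capitals, from Mcm3 (chr1:20820275-20820304, minus strand), Mcm7 (chr5:138171849-138171878, minus strand), Cdt1 (chr8:122568035-122568064, plus strand), Orc1 (chr4:108579416-108579445, plus strand), Pclaf (chr9:65890307-65890336, plus strand) and Lig1 (chr7:13278841-13278870, plus strand).
Mcm3: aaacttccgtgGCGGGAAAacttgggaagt
Mcm7: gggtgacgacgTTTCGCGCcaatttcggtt
Cdt1: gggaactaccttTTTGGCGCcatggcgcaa
Orc1: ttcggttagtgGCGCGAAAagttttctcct
Pclaf: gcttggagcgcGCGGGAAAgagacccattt
Lig1: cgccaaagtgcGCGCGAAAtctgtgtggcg
The word was on the strand of the gene in Mcm7 and Cdt1, and on the opposite strand in Mcm3, Orc1, Pclaf and Lig1.

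Recovered depth was 74206246 to 110452636 reads per library. The 11 cardiomyocyte markers were abundant in every library of these heart samples, with the lowest sums in control TAC. They summed to 6164000 to 6753000 normalized reads in control sham and 5002000 to 5851000 in control TAC. The sums were 6667000 to 7271000 in BCAA-free sham and 7196000 to 7628000 in BCAA-free TAC. Control TAC 3 stood apart, with the largest SD over genes of the deviation from its group mean (0.34 on the log2 scale, against 0.22 to 0.28 in the other 11 libraries). The structured RNAs Rn7sk, Rmrp and Rpph1 summed to 115.5 CPM (reads scaled to the same library total) in control sham 2, 19.3 in control TAC 3, and 63.6 and 76.1 in BCAA-free TAC 1 and 3, against 2.06 to 7.79 in the others. Mitochondrially coded RNA was 17.9% to 19.9% of reads in control TAC and 21.8% to 27.1% elsewhere. The part of these differences in the results below was not tested.

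TAC on the control diet was accompanied by higher RNA of most of the 39 replication genes, with a share that differed between roles. By limma with Benjamini-Hochberg adjustment over all genes (called at an adjusted p under 0.05), 22 of the 39 genes rose, a share of 56.4%, while 9.17% of all 18305 genes tested were called higher. Limma, edgeR and DESeq2 each called 0 members lower, and 1, Dut, was lower at an unadjusted p under 0.05. The median log2 change of the 39 was 0.57, against -0.02 over all genes, and the changes ran from -0.32 for Dut to 1.71 for E2f1. In 30 of 39 genes (76.9%) every TAC library was above every sham library, against 18.5% of all genes. The calls were sensitive to the libraries used: 11 members were called without control sham 1, 12 without sham 2, 12 without TAC 1 and 14 without TAC 2. In bulk heart RNA, a change in the number of cells that copy DNA and a change in RNA per cell cannot be told apart.

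After TAC, replication genes were lower on the BCAA-free diet than on the control diet. Of the 39, 27 were called lower by limma (69.2%), against 10.5% of genes called lower among 18039 tested. Limma, edgeR and DESeq2 each called 0 higher, and 0 were higher at an unadjusted p under 0.05. Their median log2 change was -0.84, against 0.02 over all genes. In 32 of 39 genes (82.1%) all 3 BCAA-free TAC libraries lay below all 3 control TAC libraries, against 19.2% of all genes. The 7 genes whose libraries overlapped were Gins1, Gins3, Pole, Rfc4, Rpa2, Fen1 and Dut.

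**Figure D1:**
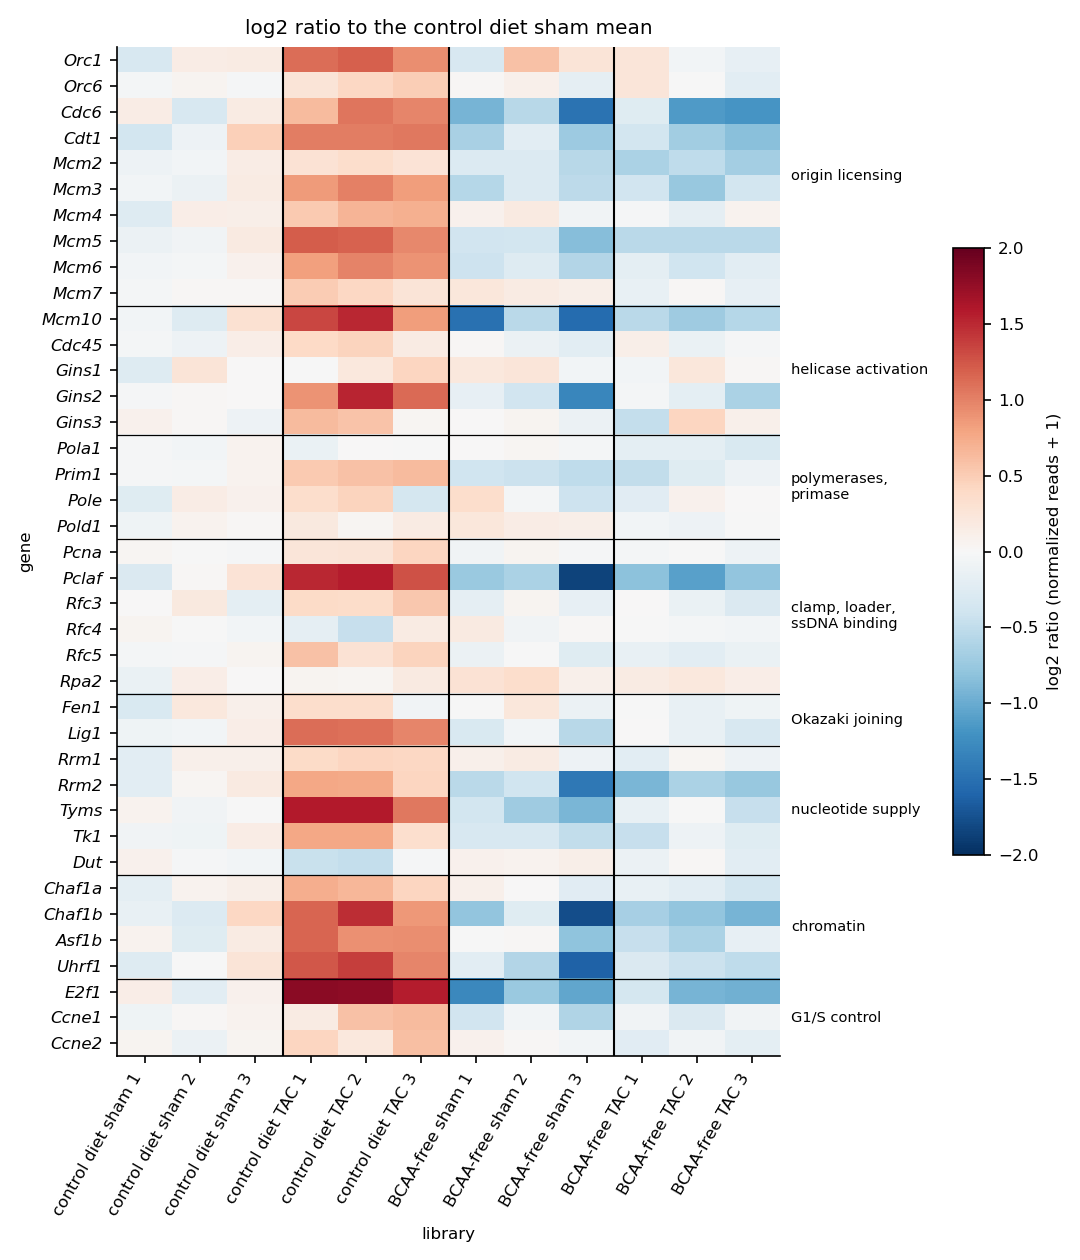
Heat map of the log2 ratio of normalized reads (+ 1) to the control sham mean, with the 39 genes as rows in 8 roles and the 12 libraries as columns. The 3 control TAC columns are red in most rows, and the BCAA-free columns are pale or blue in most rows, darkest in BCAA-free sham 3.

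Most genes of origin licensing changed: 8 of 10 genes rose with TAC on the control diet (median log2 change 0.89) and 9 of 10 were lower without BCAA after TAC (median -1.12). Mcm5 (ENSMUSG00000005410, chr8:75109569-75128439), a subunit of the helicase ring, had 448, 459 and 549 normalized reads in the control sham libraries and 1115, 1093 and 939 in control TAC. In BCAA-free sham it had 369, 375 and 267 and in BCAA-free TAC 331, 332 and 332. All control TAC libraries were high, and no BCAA-free library reached the lowest control diet one. Its log2 change with TAC was 1.10 ± 0.13 (SE; limma adjusted p = 0.00125) on the control diet, and its change between diets after TAC was -1.65 ± 0.12 (SE; limma adjusted p = 0.00025).

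Mcm6 (ENSMUSG00000026355, chr1:128331590-128359664), another ring subunit, had 896, 909 and 986 normalized reads in control sham and 1649, 1857 and 1738 in control TAC. In BCAA-free sham it had 697, 780.4 and 619 and in BCAA-free TAC 810.4, 703 and 806. The groups did not overlap between diets in either state. The log2 change with TAC was 0.90 ± 0.10 (SE; limma adjusted p = 0.000988) on the control diet, and that between diets after TAC was -1.17 ± 0.11 (SE; limma adjusted p = 0.000318). Mcm3 (ENSMUSG00000041859, chr1:20802968-20820312), a further ring subunit, had 638, 614 and 743 in control sham and 1197, 1332 and 1189 in control TAC. It had 444, 546 and 460.3 in BCAA-free sham and 508, 389.5 and 513 in BCAA-free TAC, so the pattern over groups was that of Mcm5 and Mcm6. Its log2 change with TAC was 0.89 ± 0.12 (SE; limma adjusted p = 0.00216) on the control diet, and that between diets after TAC -1.40 ± 0.14 (SE; limma adjusted p = 0.000421).

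Mcm7 (ENSMUSG00000029730, chr5:138164583-138172422) had the highest level of the 10 licensing genes per kilobase of exon, 264 normalized reads over the 12 libraries, and a different order of groups. It had 1035, 1084 and 1086 in control sham, 1512, 1428 and 1280 in control TAC, 1251, 1202 and 1161 in BCAA-free sham and 966, 1081 and 954 in BCAA-free TAC. The BCAA-free sham libraries were above all control sham libraries, and the BCAA-free TAC libraries were below the BCAA-free sham ones. TAC on the control diet changed it by 0.39 ± 0.10 (SE; limma adjusted p = 0.0349), and diet after TAC by -0.49 ± 0.11 (SE; limma adjusted p = 0.0146). Genes on the opposite strand and the microRNA genes Mir93 and Mir25 overlap 12.6% of its exonic length, so some of its reads may belong to them.

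The other licensing genes were Mcm4, Mcm2, Cdc6, Cdt1, Orc1 and Orc6. The loaders Cdc6 and Cdt1 rose by 0.89 and 1.03 on the log2 scale with TAC on the control diet, and were lower without BCAA after TAC, with changes of -1.74 and -1.67. Orc1, the largest subunit of the origin recognition complex, rose from 30.9 ± 5.78 (SD, n = 3) to 66.0 ± 6.03 normalized reads, a log2 change of 1.08 ± 0.25 (SE; limma adjusted p = 0.021). Mcm4 rose by 0.63 and was lower after TAC without BCAA (-0.67). Mcm2 was not called with TAC on the control diet (log2 change 0.29 ± 0.11 SE, limma adjusted p = 0.11), although its TAC libraries did not overlap the sham ones, and it was lower without BCAA after TAC (-0.90 ± 0.10 SE, limma adjusted p = 0.000844). Orc6, a further subunit of the origin complex, was called in neither, with 0.38 for TAC on the control diet and -0.37 for diet after TAC.

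Among the helicase activators, 2 of 5 genes rose with TAC on the control diet and the same count was lower without BCAA after TAC, and both counts were made up of Gins2 and Mcm10. Gins2, a GINS subunit, had 86.4, 89.7 and 88.7 normalized reads in control sham and 165, 256 and 194 in control TAC. It had 79.1, 67.4 and 35.3 in BCAA-free sham and 85.6, 77.2 and 56.6 in BCAA-free TAC, with no BCAA-free library as high as any control diet one. Its log2 change was 1.17 ± 0.20 (SE; limma adjusted p = 0.0066) for TAC on the control diet and -1.46 ± 0.24 (SE; limma adjusted p = 0.00356) for diet after TAC, but 67.3% of its exonic length overlaps Gse1 on the opposite strand. Mcm10, which helps to start the helicase, rose from 80.1 ± 16.5 (SD, n = 3) to 189.8 ± 44.1 (SD, n = 3) normalized reads with TAC on the control diet (log2 change 1.22 ± 0.24 SE, limma adjusted p = 0.0113).

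Cdc45, the activator that travels with the helicase, had 274, 262 and 309 in control sham, 370.3, 384 and 315 in control TAC, 286, 258 and 243 in BCAA-free sham and 306, 256 and 276 in BCAA-free TAC. The control TAC libraries were the highest, by a small margin, and the other groups overlapped. Its log2 change with TAC on the control diet was 0.33 ± 0.15 (SE; limma adjusted p = 0.172), with a 95% confidence interval of -0.004 to 0.66. The GINS subunits Gins1 and Gins3 were not called either, at 0.20 and 0.40.

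The polymerase and primase genes had the smallest medians of the 8 roles, 0.13 for TAC on the control diet and -0.18 for diet after TAC. Prim1, the small primase subunit that lays down the RNA primer, was the 1 gene of 4 called. It had 253, 249.8 and 270.2 normalized reads in control sham and 369.6, 386 and 398 in control TAC, and 196, 192 and 180.3 in BCAA-free sham and 183, 217 and 240 in BCAA-free TAC. No BCAA-free library reached a control diet one. Its log2 change was 0.57 ± 0.13 (SE; limma adjusted p = 0.0225) for TAC on the control diet and -0.85 ± 0.15 (SE; limma adjusted p = 0.00617) for diet after TAC.

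Pold1, the catalytic subunit of polymerase delta, had 888, 986 and 958 in control sham, 1082, 967 and 1056 in control TAC, 1108, 1049 and 1028 in BCAA-free sham and 910.1, 880 and 936 in BCAA-free TAC. These groups overlapped on the control diet, and on the BCAA-free diet TAC was below sham. Its log2 change with TAC on the control diet was 0.12 ± 0.10 (SE; limma adjusted p = 0.48), with a 95% interval of -0.11 to 0.36. Pola1, the catalytic subunit of polymerase alpha, changed by -0.05 (95% interval -0.30 to 0.19) and Pole, that of polymerase epsilon, by 0.14 (-0.37 to 0.64). The interval left out the median change of all 39 genes, 0.57, for Pola1 and Pold1 but not for Pole.

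In the clamp and loader group, Pcna and its binding partner Pclaf had changes of different size, a difference that was not tested. Pcna, the sliding clamp, had 3514, 3418 and 3376 normalized reads in control sham and 4053, 4109 and 4625 in control TAC. It had 3285, 3572 and 3377 in BCAA-free sham and 3347, 3418 and 3187 in BCAA-free TAC. Only the control TAC libraries stood apart, above the other 9, and the log2 change was 0.30 ± 0.10 (SE; limma adjusted p = 0.0675), which missed the threshold, while diet after TAC gave -0.35 ± 0.10 (SE; limma adjusted p = 0.0325). The annotation also holds the Pcna copies Pcna-ps1 and Pcna-ps2, with which Pcna reads could be shared.

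Pclaf, which binds Pcna at the fork, had 198, 247 and 293 normalized reads in control sham and 696, 722 and 588 in control TAC. In BCAA-free sham it had 145, 157 and 66.8 and in BCAA-free TAC 137, 114 and 140.3. The control TAC libraries were above all others, and BCAA-free sham 3 was the lowest of 12. TAC on the control diet raised it 2.72-fold, a log2 change of 1.44 ± 0.17 (SE; limma adjusted p = 0.00131), and after TAC it was 5.08-fold lower without BCAA (-2.35 ± 0.16 SE, limma adjusted p = 0.000248). Of the clamp loader genes, Rfc3 and Rfc5 had log2 changes with TAC on the control diet of 0.42 and 0.43, both not called. Both were lower without BCAA after TAC, with changes of -0.56 and -0.60. Rfc4 changed by -0.17 and 0.12 and Rpa2, which coats single-stranded DNA, by 0.08 and 0.08, and neither was called in either comparison.

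**Figure D2:**
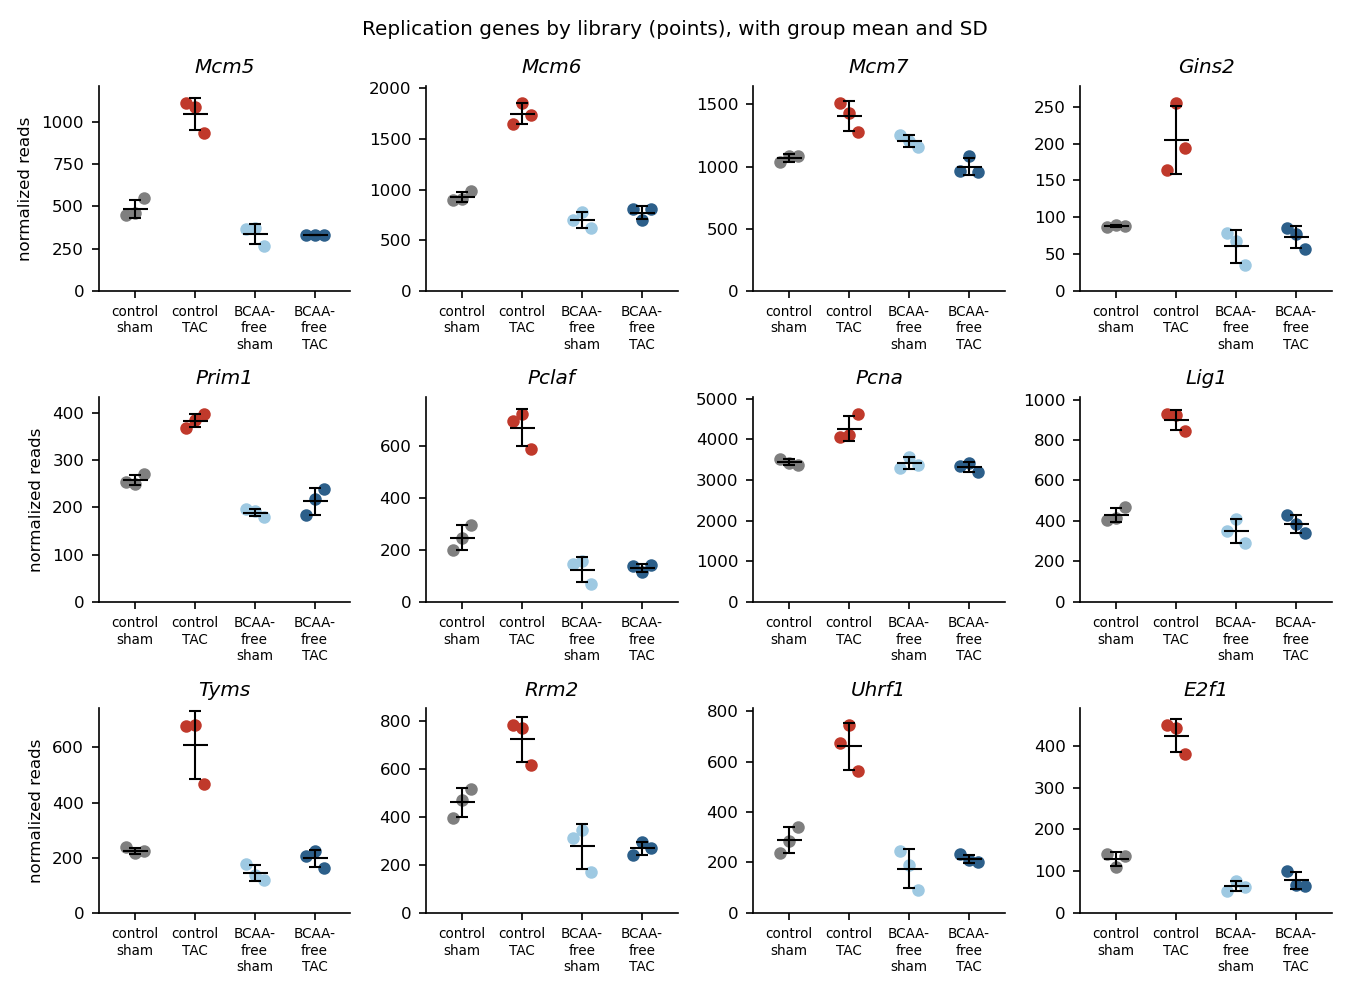
Normalized reads (y axis, from 0) of 12 of the replication genes, with 1 point per library, the mean as a bar and the SD as error bars, for the 4 groups along the x axis. The control TAC libraries are the highest in each panel, while Pcna and Mcm7 move less than Pclaf or E2f1. All 12 genes shown are from the 30 of 39 with control TAC highest, and none of the exceptions is shown.

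Of the 2 genes of Okazaki fragment joining, Lig1 was called and Fen1 was not. Lig1 (ENSMUSG00000056394, chr7:13277283-13311433), the ligase that seals the fragments, had 405, 412 and 469 normalized reads in control sham and 929, 922 and 843 in control TAC, and 348, 411 and 290 in BCAA-free sham and 429, 386 and 342 in BCAA-free TAC. The sham and TAC libraries of the control diet did not overlap, and those of the BCAA-free diet did. Its log2 change was 1.06 ± 0.12 (SE; limma adjusted p = 0.000998) with TAC on the control diet and -1.22 ± 0.13 (SE; limma adjusted p = 0.000529) for diet after TAC. Fen1, the nuclease that trims the flaps, had 120.4, 173 and 159.9 in control sham, 191, 191 and 143 in control TAC, 148, 175 and 138 in BCAA-free sham and 148, 134 and 140.3 in BCAA-free TAC, so all 4 groups overlapped. Its log2 change with TAC on the control diet was 0.20 ± 0.21 (SE; limma adjusted p = 0.557). Since 84.2% of its exonic length overlaps Gm10143 and Tmem258 on the opposite strand, the count may not be that of Fen1 alone.

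Of the 5 genes of nucleotide supply, 4 rose with TAC on the control diet and 4 were lower without BCAA after TAC, all but Dut. Tyms, thymidylate synthase, had 237, 216 and 224 normalized reads in control sham and 677, 682 and 467 in control TAC. It had 175, 137 and 118 in BCAA-free sham and 204, 224 and 164 in BCAA-free TAC. The control TAC libraries were above all others, with control TAC 3 the lowest of them, and the other groups overlapped in part. TAC on the control diet gave a log2 change of 1.40 ± 0.17 (SE; limma adjusted p = 0.00149) and diet after TAC -1.61 ± 0.19 (SE; limma adjusted p = 0.000861), and Tyms-ps, a copy in the annotation, could share its reads.

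Rrm1 and Rrm2 form ribonucleotide reductase, which makes deoxyribonucleotides. Rrm1 had 1404, 1734 and 1740 normalized reads in control sham, 2100, 2186 and 2146 in control TAC, 1744, 1807 and 1508 in BCAA-free sham and 1400, 1657 and 1500 in BCAA-free TAC. Rrm2 had 396, 469.8 and 516 in control sham, 785, 772 and 617 in control TAC, 313, 347 and 170.2 in BCAA-free sham and 242, 294 and 271 in BCAA-free TAC. The control TAC libraries were above the rest in both genes, but the BCAA-free libraries fell below all control diet libraries in Rrm2 and not in Rrm1. Log2 changes with TAC on the control diet were 0.40 ± 0.11 (SE; limma adjusted p = 0.0411) for Rrm1 and 0.64 ± 0.15 (SE; limma adjusted p = 0.0205) for Rrm2. Those for diet after TAC were -0.50 and -1.42. Tk1, a thymidine kinase, rose by 0.62, and diet after TAC gave -0.89. Dut, which clears dUTP, went the other way with TAC on the control diet (-0.32 ± 0.14 SE, limma adjusted p = 0.155), which did not pass the test. Without control TAC 3 its change was -0.47 (limma adjusted p = 0.00446), which was called lower, and diet after TAC gave 0.36 (limma adjusted p = 0.0104), called higher.

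All 4 chromatin genes rose with TAC on the control diet and all 4 were lower without BCAA after TAC, with medians of 1.08 and -1.51. Uhrf1, which keeps DNA methylation on new strands, had 238, 283 and 342 normalized reads in control sham and 674, 746 and 561 in control TAC. It had 244, 189.8 and 92.0 in BCAA-free sham and 232, 211 and 201 in BCAA-free TAC. BCAA-free sham 3 was below the other libraries of its group, and the BCAA-free sham and TAC libraries overlapped. Log2 changes were 1.19 ± 0.17 (SE; limma adjusted p = 0.00317) with TAC on the control diet and -1.60 ± 0.15 (SE; limma adjusted p = 0.000349) for diet after TAC.

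Chaf1a, a subunit of the histone-loading factor CAF-1, had 285, 345 and 357 in control sham, 540.4, 520.4 and 442 in control TAC, 351, 328 and 279.9 in BCAA-free sham and 296, 284 and 254 in BCAA-free TAC. Uhrf1 and Chaf1a both had their highest values in the control TAC libraries. Chaf1a changed by 0.60 with TAC on the control diet and -0.84 for diet after TAC. Ubxn6 on the opposite strand overlaps 52.5% of the exonic length of Chaf1a. Chaf1b, its partner, changed by 1.16 and -1.95, and Asf1b, a histone chaperone, by 1.00 and -1.42.

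E2f1 (ENSMUSG00000027490, chr2:154559407-154569892), a transcription factor that drives S phase genes, had the largest change of the 39 in both comparisons. It had 139.8, 110 and 136 normalized reads in control sham and 451, 444 and 380.1 in control TAC. In BCAA-free sham it had 51.7, 76.3 and 61.8 and in BCAA-free TAC 99.7, 67.0 and 65.2. Every BCAA-free library was below every control diet one, and the control TAC libraries were far above all others. TAC on the control diet raised it 3.28-fold (log2 change 1.71 ± 0.17 SE, limma adjusted p = 0.000623), and after TAC it was 5.51-fold lower without BCAA (-2.46 ± 0.20 SE, limma adjusted p = 0.000259).

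The cyclin E genes bind the kinase that opens S phase. Ccne2 had 318, 283 and 317 normalized reads in control sham, 414, 354 and 465 in control TAC, 324, 310.4 and 295 in BCAA-free sham and 262, 292 and 267 in BCAA-free TAC. The control TAC libraries were the highest, and BCAA-free TAC lay below BCAA-free sham. Diet after TAC gave a log2 change of -0.57 ± 0.15 (SE; limma adjusted p = 0.0309), and TAC on the control diet gave 0.41 ± 0.15 (SE; limma adjusted p = 0.109), which was not called. Ccne1 was called in neither comparison, at 0.45 and -0.59.

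**Figure D3:**
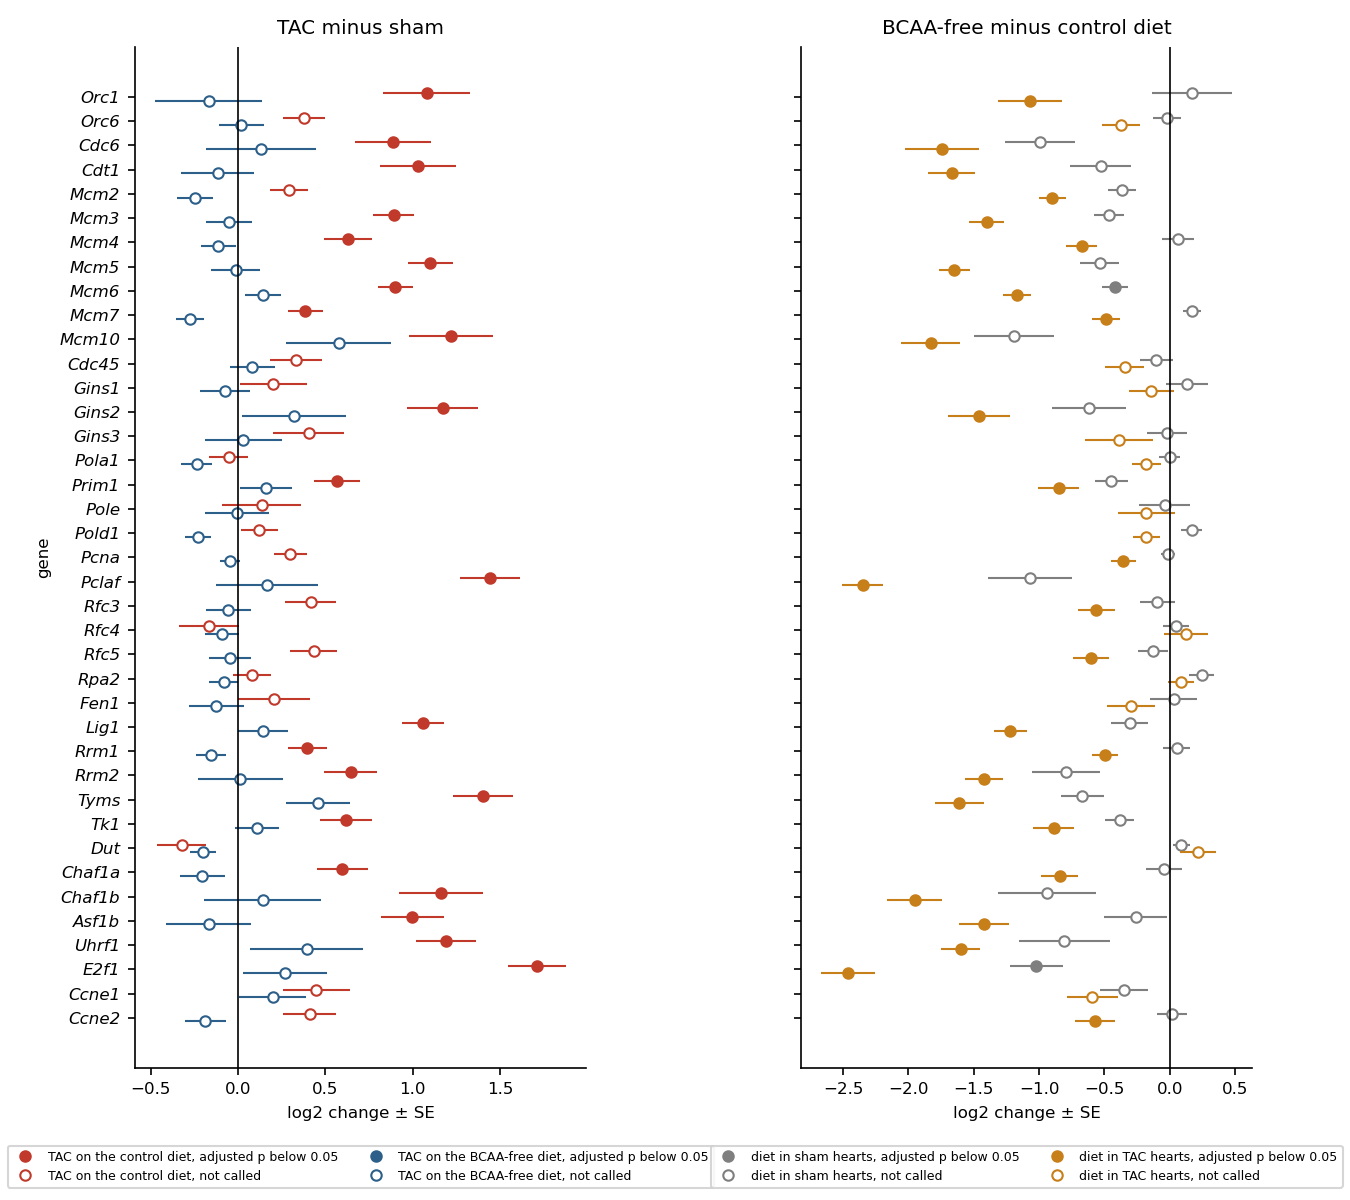
Log2 change ± SE (x axis) of the 39 genes (rows) for TAC minus sham on each diet (left) and for the BCAA-free minus the control diet in sham and TAC hearts (right); filled points were called at an adjusted p under 0.05 and open points were not. On the left the control diet points lie to the right of the BCAA-free points for most genes, and on the right the changes in TAC hearts lie to the left of 0 for 36 of 39 genes.

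On the BCAA-free diet, TAC changed no member past the threshold: limma called 0 of 39 higher (3.31% of 17611 genes were) and 0 lower (4.41% of genes were), edgeR called 0, DESeq2 called 1 lower, and 6 had an unadjusted p under 0.05. The median log2 change was -0.04, against 0.01 over all genes, and 17 of 39 were above 0. No member had all TAC libraries above all sham libraries (13.4% of genes did), and 5 had all below: Mcm7, Pola1, Pold1, Dut and Ccne2 (14.7% of genes did). The largest changes were 0.58 ± 0.30 (SE; limma adjusted p = 0.277) for Mcm10, with a 95% interval of -0.08 to 1.23, and 0.46 ± 0.18 (SE; limma adjusted p = 0.156) for Tyms, with 0.06 to 0.86. Mcm7 was nearest to a call, at -0.27 ± 0.08 (SE; limma adjusted p = 0.0544), and it was the gene DESeq2 called. Without BCAA-free TAC 2 it was called, at -0.33 (limma adjusted p = 0.0359). For Mcm5 and E2f1 the intervals were -0.32 to 0.29 and -0.25 to 0.79.

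In sham hearts the diet alone was accompanied by lower levels of several members, of which few passed the test. Limma called 2 of 39 lower, E2f1 (-1.02 ± 0.21 SE, limma adjusted p = 0.0281) and Mcm6 (-0.42 ± 0.10 SE, limma adjusted p = 0.0485), where 2.27% of 17862 genes were called. The median log2 change of the members was -0.13, against 0.00 over all genes. The libraries did not overlap for some genes in either direction. The 2 genes Mcm7 and Pold1 were higher without BCAA (13.2% of genes were higher with no overlap), and 13 were lower (12.9% of genes): Cdc6, Mcm2, Mcm3, Mcm5, Mcm6, Mcm10, Gins2, Prim1, Pclaf, Rrm2, Tyms, Tk1 and E2f1. Of the 39, 12 had in the authors' deposited table an adjusted p under 0.05 and a lower level, as 5.34% of genes did. These 12 were the 13 lower genes without overlap other than Gins2. The largest changes were those of Mcm10 (-1.19 ± 0.30 SE, limma adjusted p = 0.0594) and Pclaf (-1.07 ± 0.32 SE, limma adjusted p = 0.113), which limma did not call. Leaving out control sham 1, control sham 3, BCAA-free sham 1 or BCAA-free sham 3 left 0 called in each case, and without control sham 2 there were 3.

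Counted over both states, 11 genes had all 6 BCAA-free libraries below all 6 control diet libraries: E2f1, Gins2, Mcm10, Mcm2, Mcm3, Mcm5, Mcm6, Pclaf, Prim1, Rrm2 and Tk1. Over all genes this held for 2.53%, against 28.2% of the 39. In 30 of the 39, the 3 control TAC libraries were above the other 9, which held for 12.8% of all genes. The 9 exceptions were Gins1, Gins3, Pola1, Pole, Pold1, Rfc4, Rpa2, Fen1 and Dut.

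In 6 genes the effect of TAC depended on the diet, tested as an interaction over all 12 libraries: Mcm5, Mcm7, Mcm6, Mcm3, E2f1 and Lig1. All 6 differences were below 0, a direction in which 0.503% of 17493 genes were called. The difference in log2 change was -1.12 ± 0.19 (SE; limma adjusted p = 0.0242) for Mcm5, -0.66 ± 0.12 (SE; limma adjusted p = 0.0275) for Mcm7 and -0.76 ± 0.14 (SE; limma adjusted p = 0.032) for Mcm6. For Mcm3 it was -0.94 ± 0.18 (SE; limma adjusted p = 0.0354), for E2f1 -1.44 ± 0.29 (SE; limma adjusted p = 0.0401) and for Lig1 -0.91 ± 0.19 (SE; limma adjusted p = 0.0456). Mcm3, Mcm5, Mcm6 and Mcm7 are subunits of the same helicase ring.

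The remaining ring subunits had differences of -0.74 ± 0.17 (SE; limma adjusted p = 0.0647) for Mcm4 and -0.54 ± 0.15 (SE; limma adjusted p = 0.102) for Mcm2, which did not pass. In all, 37 of 39 differences were below 0, with a median of -0.60 against 0.02 over all genes. The number of calls moved with the tool (16 with DESeq2) and with single libraries: 15 were called without control TAC 3, 1 without control sham 3 or control TAC 1, and 0 without control sham 1, control sham 2, control TAC 2, BCAA-free sham 1, BCAA-free sham 2, BCAA-free TAC 2 or BCAA-free TAC 3.

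Library by library, the median log2 ratio of the 39 genes to their control sham mean was 0.59, 0.58 and 0.54 in the control TAC libraries. It was -0.16, -0.05 and -0.42 in BCAA-free sham, and -0.20, -0.18 and -0.21 in BCAA-free TAC. BCAA-free sham 3 was the lowest and had the lowest value of its group in 32 of the 39 genes and of all 12 libraries in 18. Control TAC 3, the library with the largest spread, had the lowest value of its group in 19 genes.

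Members at a high level tended to change less with TAC. Per kilobase of exon in BCAA-free sham, Pcna was the highest at 1421 normalized reads, followed by Dut at 717 and Rpa2 at 418, and Mcm10 the lowest at 4.68. Across the 39 genes, Spearman's rho between this level, from libraries the comparison did not use, and the log2 change with TAC on the control diet was -0.66, against -0.14 over 17640 genes. This level carries any effect of the diet in sham hearts, where E2f1 and Mcm6 were called lower without BCAA. The part of that effect in rho was not tested. Genes are not independent replicates, and they share libraries and depth. The 20 genes of the upper part had a median change of 0.38 and 8 calls, and the 19 of the lower part a median of 1.00 and 14 calls.

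**Figure D4:**
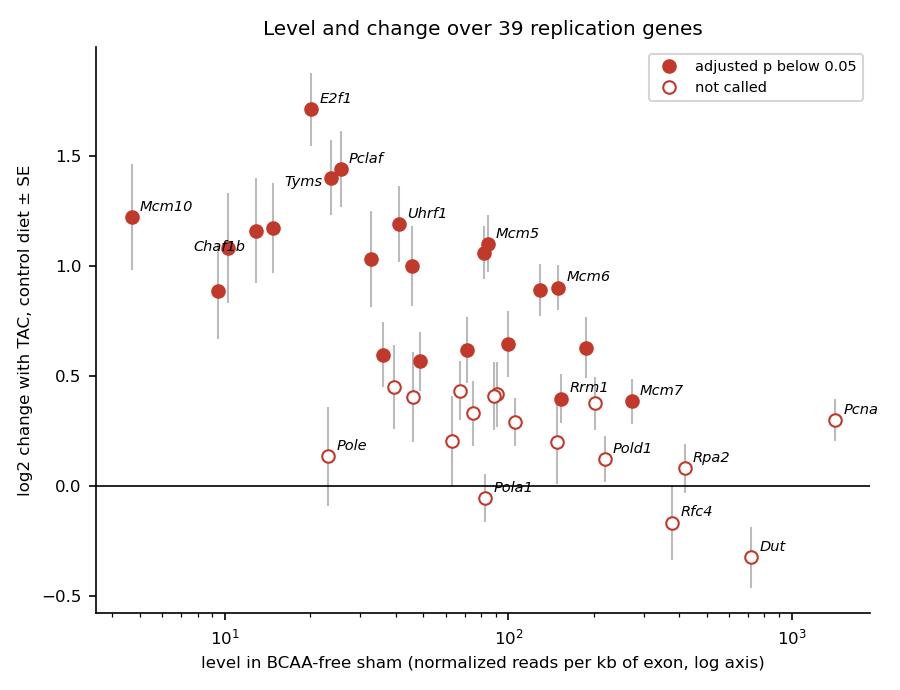
Level in BCAA-free sham hearts (x axis, normalized reads per kilobase of exon, log scale) against log2 change with TAC on the control diet ± SE (y axis) for the 39 genes; filled points were called. Dut, Rfc4 and Rpa2, among the most abundant, lie near or below 0, and E2f1, Pclaf and Tyms, at lower levels, lie above 1.

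The promoter words were set beside the changes. Of the 14 genes with one of the 4 E2F words, 10 were called with TAC on the control diet, with a median log2 change of 0.90, and of the 20 matched genes without, 10 were called, with a median of 0.44. After TAC, 11 of the 14 were lower without BCAA (median -1.19) and 13 of the 20 (median -0.72). The wider core words were in 20 of the 34 matched genes, so some genes without one of the 4 words hold a core word. Cdc6, Cdt1, Mcm3, Mcm5, Mcm6, Mcm7 and Orc1, among the 14, are licensing genes, of which 8 of 10 rose on the control diet. The difference between genes with and without a word was not tested. Gins3, Pola1 and Pold1 had a word and were not called in either, while Mcm10 and E2f1 had none and were among the largest changes.

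Of 52 other genes of replication, 11 rose and 1 fell with TAC on the control diet (9.17% and 5.64% of all genes). Their median log2 change was 0.14. Without BCAA after TAC, 14 were lower and 1 higher (10.5% and 6.23% of all genes), with a median of -0.16. Clspn, which signals from stalled forks, rose by 1.82 and Dscc1, of an alternative clamp loader, by 1.69. Ticrr and the kinase pair Cdc7 and Dbf4, which fire origins, rose by 1.39, 0.98 and 0.77. All 5 were lower without BCAA after TAC, with changes of -2.43, -2.18, -2.13, -1.05 and -1.43. The gene that fell was Rrm2b (-0.42 ± 0.10 SE, limma adjusted p = 0.0201), the ribonucleotide reductase subunit of non-dividing cells, and it was higher without BCAA after TAC (0.36 ± 0.09 SE, limma adjusted p = 0.028). On the BCAA-free diet 3 of the 52 were lower with TAC: Rfc1, Rpa1 and Rrm2b. Of all 17611 genes tested, 4.41% were called lower there, so this count was near the share over all genes.

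Markers of other cell types moved with the same groups. Over all genes, 9.17% were called higher and 5.64% lower with TAC on the control diet, and 3.31% and 4.41% on the BCAA-free diet. Without BCAA, 6.23% were higher and 10.5% lower after TAC, and 1.27% and 2.27% in sham hearts. Of 11 macrophage and monocyte markers 6 rose with TAC on the control diet and 8 were lower without BCAA after TAC. Their summed level was 15900 to 20450 normalized reads in control sham, 29640 to 32900 in control TAC, 15370 to 17560 in BCAA-free sham and 17440 to 23590 in BCAA-free TAC. Of 11 fibroblast markers 9 rose and 8 were lower in the same comparisons, and their sums were 75010 to 101200, 213900 to 337500, 64820 to 70740 and 87010 to 108700 in the same order of groups. On the BCAA-free diet 3 macrophage and 7 fibroblast markers rose with TAC and 1 fibroblast marker, Pdgfra, fell (-0.22). None of the 39 replication genes passed the test there, and the difference between the lists was not tested. In sham hearts without BCAA, 2 fibroblast markers (Col1a1 and Postn) and 1 macrophage marker (C1qc) were lower and 1 macrophage marker (Lyve1) was higher. All 11 markers of each list were measured, and 0 were at 0 in any library. The part of these cell types in the replication results was not tested.

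Of 10 endothelial markers 1 was lower without BCAA after TAC, where 10.5% of all genes were, and 1 in sham hearts, where 2.27% were. Their sums were 86960 to 96700, 66830 to 96240, 77370 to 81430 and 77530 to 81980 in the same group order. Of 9 pericyte and smooth muscle markers 2 rose and 3 fell with TAC on the control diet (sums of 115800 to 127000 in sham and 81820 to 111900 in TAC), 3 rose and 1 fell with TAC on the BCAA-free diet, and 2 were higher and 1 lower without BCAA after TAC. Of 11 cardiomyocyte markers 1 fell with TAC on the control diet (Pln), while 5 rose (Tnnc1, Mybpc3, Actc1, Actn2 and Myl2) and 1 fell (Ryr2) on the BCAA-free diet. Without BCAA, 5 of them were higher after TAC and 1 (Actc1) was lower in sham hearts. The 5 lymphocyte markers measured in all 12 libraries summed to 183.6 to 262.1 normalized reads and 4 such neutrophil markers to 101.1 to 381.5, which leaves out Cd3e, Cd3g, Cd8a, Klrb1c, Nkg7, Ly6g, Mmp8 and Retnlg. Of 8 lymphocyte markers tested for diet after TAC, 2 were lower without BCAA, Nkg7 (-1.91 ± 0.43 SE, limma adjusted p = 0.0149) and Klrb1c (-1.86 ± 0.42 SE, limma adjusted p = 0.0159). Among the comparisons of 2 groups, Nkg7 and Klrb1c were tested only in those with control TAC. In the comparisons without that group 5 lymphocyte markers were tested. A lower value without BCAA was thus favoured in advance for these 2 genes, and no conclusion is drawn from their calls. Of 5 neutrophil markers tested with TAC on the control diet, Csf3r rose (0.70), 3 had changes below 0, and the median was -0.15. On the BCAA-free diet all 4 tested were above 0, with a median of 1.00, and Csf3r alone was called (0.96). Atrial markers summed to 5960 to 29320 in control sham, 17460 to 40250 in control TAC, 9044 to 19310 in BCAA-free sham and 25610 to 29940 in BCAA-free TAC. Erythroid precursor markers summed to 27390 to 42430, 21280 to 40750, 29250 to 52560 and 27260 to 41510 in that order.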

How the data were processed

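Per the submitters' processing notes, DESeq2 (no version), Subread 1.5.2, STAR 2.5.2b and Trimmomatic 0.36 were used. Their roles, the annotation and the strand setting were not given in the sources used here, and reads of overlapping, antisense or near-identical genes may be mixed. Per the file headers, the authors deposited 4 tables, 1 for every pair of groups compared, which hold a normalized signal for each library, a log2 fold change, and a p-value with its adjusted value. The signal is a read count over a size factor, set by library and table: of 431838 values, 100% were whole reads to within 0.0001 read. Of 212169 recovered read counts compared between tables, 0 differed.

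On the deposited signal, limma-trend (limma 3.58.1 with R 4.3.3, robust empirical Bayes) was fitted to log2(signal + 1) of genes with a mean of at least 10, 2 groups at a time, and over 12 libraries for the difference of TAC responses. P-values were adjusted over all genes tested by Benjamini-Hochberg. Fold changes use the scaling of each table and are on the log2(signal + 1) scale, and levels use a joint scaling of the 12 libraries. Exonic lengths and positions are from the GENCODE annotation on GRCm38. The fits were tested on simulated data with the same replicate variability for all genes and no deviating library. That setting is simpler than these data, so it does not check the calls made here. The count tests edgeR 4.0.16 and DESeq2 1.42.0 were run on the recovered reads as alternatives.

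Values in every library are given, in each role, for the gene of highest mean level and that of smallest p for TAC on the control diet (or the next smallest), plus up to 8 genes called in another comparison and up to 5 called for the difference of responses. The members and lists were chosen with earlier results of these data known. The labels do not state that replicates are separate animals, and p-values therefore reflect just the spread among these libraries, possibly technical. Replicate libraries differed by more than counting noise (chi-square per gene of at least 14.7). Alternatives were pseudocounts of 0.5 and 10, no filter or a mean of at least 50, TMM scaling, edgeR, DESeq2, the replicate number as a block, a joint fit, and leaving out each library.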

Additional observations from a re-analysis of the deposited data

Results flagged for a closer look

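For 6 replication genes TAC had different effects on the 2 diets, by an interaction test over all 12 libraries (limma with Benjamini-Hochberg adjustment over 17493 genes). The difference in log2 change, BCAA-free minus control diet, was -1.12 for Mcm5, -0.66 for Mcm7 and -0.76 for Mcm6. It was -0.94 for Mcm3, -1.44 for E2f1 and -0.91 for Lig1. All 6 rose on the control diet, while on the BCAA-free diet their changes ran from -0.27 for Mcm7 to 0.27 for E2f1 and none was called. Over the alternatives the adjusted p of Mcm5 reached 0.0882 and that of Lig1 0.135, and none of the 6 was called under every alternative. Mcm3, Mcm5, Mcm6 and Mcm7 are subunits of 1 helicase ring, so their RNAs are not independent items.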

How the results depend on the processing

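For TAC on the control diet, the 22 members called became 14 with the replicate block and 11 to 25 when each library was left out in turn, and the median log2 change of 0.57 ran from 0.50 to 0.60. For TAC on the BCAA-free diet, 0 became 1 with a mean of at least 50, 1 with DESeq2 and 0 to 1 without single libraries. For diet in sham hearts, 2 became 12 with DESeq2, 0 with the replicate block, 1 in the joint fit and 0 to 3 without single libraries. For diet in TAC hearts, the 27 calls became 24 with the block and 21 to 29 without single libraries. The 29, without control TAC 3, were 28 lower and 1 higher. The median of -0.84 became -0.76 with a mean of at least 50, where Orc1 was not tested. It ran from -0.86 to -0.75 without single libraries. For the difference of responses, 6 became 16 with DESeq2, 0 with the replicate block and 0 to 15 without single libraries, and its median of -0.60 ran from -0.65 to -0.49. The numbers were not taken to pair the libraries: deviations of same-numbered libraries correlated at -0.171 to 0.0345. Within each comparison of 2 groups, only control TAC 1 and control sham 1 correlated best with their own number. Calls kept in every alternative were 10 of 22 for TAC on the control diet (Asf1b, E2f1, Gins2, Lig1, Mcm3, Mcm5, Mcm6, Pclaf, Tyms and Uhrf1), 21 of 27 for diet in TAC hearts, 0 of 2 for diet in sham hearts and 0 of 6 for the difference, and 0 changed sign. The causes of these moves were not tested. Orc1, at 40.9 normalized reads on average, and Mcm10, at 89.3, rest on the fewest reads.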

Other observations

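Regulators of S phase entry outside the 39 genes also moved. Of 29 E2F, Rb, cyclin and CDK genes, 8 rose and 3 fell with TAC on the control diet (9.17% and 5.64% of all genes). Their median log2 change was 0.27. Without BCAA after TAC, 15 were lower and 3 higher (10.5% and 6.23% of all genes), with a median of -0.39. E2f2, a second activating E2F, changed by 1.68 ± 0.24 (SE; limma adjusted p = 0.00326) with TAC on the control diet and -2.44 ± 0.35 (SE; limma adjusted p = 0.00202) for diet after TAC, and Ccna2, the cyclin of S phase and G2, by 1.64 ± 0.26 (SE; limma adjusted p = 0.00462) and -2.87 ± 0.23 (SE; limma adjusted p = 0.000259). The inhibitors Cdkn2a and Cdkn2b also rose with TAC on the control diet, Cdkn2b by 1.31. Cdkn1c, another inhibitor, fell by 1.19 and was higher without BCAA after TAC by 1.01, and its TAC response differed between diets (0.96 ± 0.15 SE, limma adjusted p = 0.0171). Rbl2, a pocket protein that holds E2F targets down in resting cells, fell by 0.38 on the control diet and by 0.27 on the BCAA-free diet. Ccnd1, the cyclin that acts ahead of cyclin E, was lower without BCAA in both states, with changes of -0.86 ± 0.10 (SE; limma adjusted p = 0.00429) in sham hearts and -1.08 ± 0.17 (SE; limma adjusted p = 0.00308) after TAC.

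Genes of mitosis had larger median changes than the 39 replication genes. Of 30, 27 rose and 1 fell with TAC on the control diet (9.17% and 5.64% of all genes). Their median log2 change was 1.52. Without BCAA after TAC, 28 were lower (10.5% of all genes), with a median of -2.46. In sham hearts 10 of the 30 were lower without BCAA and 1 higher (2.27% and 1.27% of all genes), with a median of -1.15. Top2a, the topoisomerase that untangles sister chromosomes, changed by 1.53 ± 0.25 (SE; limma adjusted p = 0.00522) with TAC on the control diet and -2.79 ± 0.21 (SE; limma adjusted p = 0.000259) for diet after TAC. Cenpf, a kinetochore protein, was the exception in both: it fell by 1.05 with TAC on the control diet and was higher without BCAA in sham hearts (0.57 ± 0.10 SE, limma adjusted p = 0.0176). The difference in size between the 2 sets of genes was not tested.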
